A study of Mus musculus with 16 samples.

Results

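The genes described here are 10 components of inflammatory signalling read in mouse liver: the cytokines Tnf and Il6, the transcription factor gene Nfkb1, the CC chemokines Ccl2, Ccl4 and Ccl5, and the CXC chemokines Cxcl1, Cxcl9, Cxcl10 and Cxcl13. They were taken by name from the gene names on the array, by a rule that holds no measured value but was set with earlier results of these data known, and correspond to 16 of 56605 probes and 10 of 37074 gene names. Total RNA from the liver of each of 16 C57BL/6 male mice, 10 weeks old and fed normal chow (NC) for 4 weeks from 6 weeks of age, was hybridised to its own 1-colour Agilent array. All mice were conventional, meaning that they kept their own gut microbiota, and no antibiotic was given. Conv + PBS (n = 6) received the vehicle, reduced PBS, by the treatment description, although the sample labels call these mice not transplanted. Conv + LM (n = 5) were inoculated with caecal microbiota from lean NC-fed donors and Conv + OM(HFD) (n = 5) with caecal microbiota from donors made obese on a high-fat diet. Caecal material of donors was transferred by gavage, recipients were housed in groups, and their cages are not given in the sources used here, so that the part of cage in any difference was not tested. Whether these genes differed between vehicle, lean and obese microbiota livers is the question the comparisons address.

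TNF and interleukin-6 are secreted mainly by macrophages and other immune cells, and in liver the resident macrophages, the Kupffer cells, are a known source. Signals from bacterial products and from TNF itself release NF-κB dimers into the nucleus, where they activate cytokine and chemokine genes. Nfkb1 encodes the precursor of one DNA-binding subunit of NF-κB. Chemokines draw leukocytes by their receptors: Ccl2 attracts monocytes through Ccr2, Ccl4 and Ccl5 attract monocytes and T cells, Cxcl1 attracts neutrophils through Cxcr2, Cxcl9 and Cxcl10 are induced by interferons and attract activated T cells through Cxcr3, and Cxcl13 attracts B cells through Cxcr5.

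The promoter table used here, from RefSeq on build GRCm38.p6, held 6 of the 10 genes: Tnf, Il6, Cxcl1, Cxcl9, Cxcl10 and Cxcl13. The 250 bases before the start were searched on both strands for the NF-κB consensus. It was found in 3 of these 6 genes, Il6, Cxcl1 and Cxcl10, and in 7.25% of all 32851 promoter windows of the same length. The 3 windows with the consensus are shown. Between mice Cxcl1 and Cxcl10 varied together with Nfkb1, while Il6 was close to background. Whether the consensus has a part in this was not tested, and Ccl2 and Ccl5 have no window here. The core of the interferon-stimulated response element (ISRE), present in 2.98% of windows, was found among the 6 only in that of Cxcl10. Capitals mark the matches to both motifs, and overlapping matches of the NF-κB consensus run together. A match describes the letters of the window and is not a measured binding site. The windows lie on chromosome 5, that of Cxcl1 on the plus strand at chr5:90890995-90891244, that of Cxcl10 on the minus strand at chr5:92348890-92349139, and that of Il6 on the plus strand at chr5:30012864-30013113.
Cxcl1: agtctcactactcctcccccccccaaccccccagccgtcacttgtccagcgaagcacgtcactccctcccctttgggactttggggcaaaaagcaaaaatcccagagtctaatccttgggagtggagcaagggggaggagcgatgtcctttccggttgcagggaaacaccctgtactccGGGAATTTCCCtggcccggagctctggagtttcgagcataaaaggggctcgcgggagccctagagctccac
Cxcl10: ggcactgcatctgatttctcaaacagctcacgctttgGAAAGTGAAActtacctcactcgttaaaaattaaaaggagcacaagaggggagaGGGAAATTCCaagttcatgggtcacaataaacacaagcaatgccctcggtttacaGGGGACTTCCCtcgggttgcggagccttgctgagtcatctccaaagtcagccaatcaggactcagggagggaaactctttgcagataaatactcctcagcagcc
Il6: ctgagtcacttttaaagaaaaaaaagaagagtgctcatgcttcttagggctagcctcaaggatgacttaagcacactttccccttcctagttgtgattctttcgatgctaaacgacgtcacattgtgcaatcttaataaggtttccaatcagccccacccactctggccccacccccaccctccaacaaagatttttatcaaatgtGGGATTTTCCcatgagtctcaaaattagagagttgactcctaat

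Levels are log2 of the scanner's background-subtracted signal minus the 75th percentile of the same array, so that 0 is the signal of a probe brighter than 75% of the others. The 75th percentile lay between 153 and 220 intensity units, and 49.7% to 58.3% of probes were well above background by the scanner's own call. No spot was saturated. Hepatocyte markers were well above background as a set of 8 of 8 genes, with mean levels of 9.38 to 9.84 in all mice. The arrays lay on 2 slides that each held all 3 groups. In whole liver, fewer cells of a type and less RNA per cell cannot be told apart.

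Before the comparisons, 2 mice have to be named. Conv + PBS mouse 1 and Conv + OM(HFD) mouse 25 stood apart from all others in genes of neutrophils: S100a9, which encodes a subunit of the neutrophil protein calprotectin, was at 4.41 and 4.42 in them and between -2.14 and -0.26 in the other 14 mice. The mean of the 7 neutrophil markers that passed the filter on dim probes, of 10 in the list, was 2.28 and 2.54 in these mice and -1.45 to -0.14 in the others. The mean of the 10 Kupffer cell markers was 3.70 in mouse 1 and 2.59 in mouse 25, against 0.98 to 1.96 elsewhere. Values without one or both of them, a choice made after seeing the data, stand beside the results they move most.

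Detection divided the set. For 7 genes, Tnf, Nfkb1, Ccl2, Ccl5, Cxcl1, Cxcl9 and Cxcl10, the brightest probe was well above background on all 16 arrays. Cxcl13 was well above background on 10 arrays, in 4 of 6 Conv + PBS, 2 of 5 Conv + LM and 4 of 5 Conv + OM(HFD) mice. Ccl4 was so on 3 arrays, 1 in each group, and Il6 on 1. The share of mice with the call gave a lowest two-sided Fisher's exact p of 0.455 over these 3 genes, for Il6 in Conv + OM(HFD) vs. Conv + PBS. Genes with a probe well above background on at least 5 arrays were tested, which kept 8 members and left out Il6 and Ccl4, and 20404 genes in all.

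**Figure D1:**
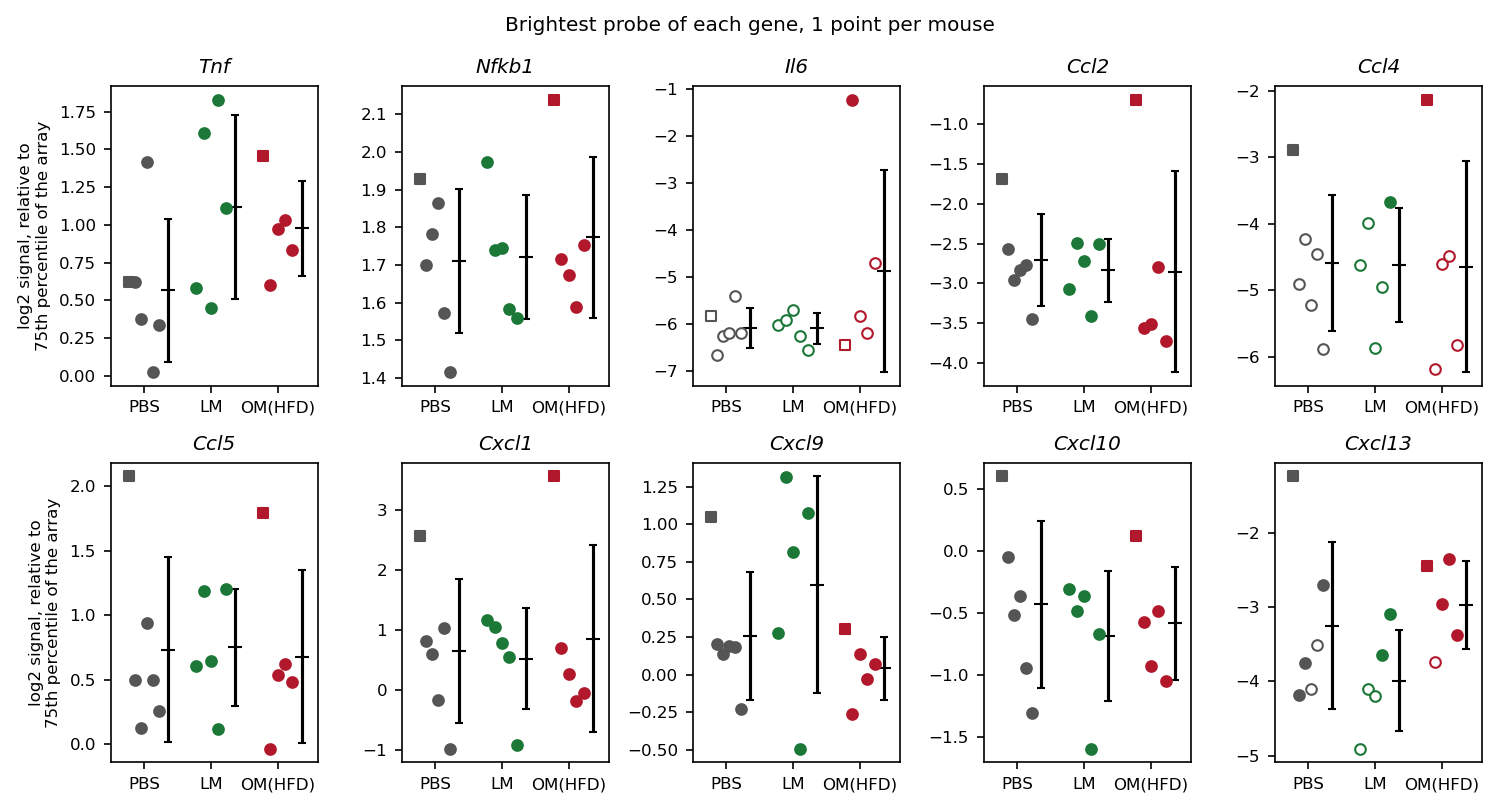
Level of the brightest probe of each gene (log2 signal relative to the array's 75th percentile, vertical axes differ by gene) in each mouse, by group. Filled symbols are well above background and open ones are not, squares are Conv + PBS mouse 1 and Conv + OM(HFD) mouse 25, and bars are the mean ± SD; the 3 groups overlap for all 10 genes.

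The array carried several probes for 5 of the genes, and for Tnf they disagreed. A Tnf probe at chr17:35336967-35337026 (mm9, minus strand) was bright in all mice, with 208 to 665 intensity units. The other, at chr17:35336795-35336854 and 172 bases further along the same transcript, was well above background on 0 of 16 arrays, with 1.75 to 3.90 units. All Tnf values therefore rest on 1 of its 2 probes, and which of them reads Tnf could not be settled from these arrays. The first 30 of the 60 bases of both probes are shown because the choice between them decides whether Tnf is called detected.
Tnf, bright probe: ttattgtctactcctcagagcccccagtct
Tnf, probe at background: tgggctttccgaattcactggagcctcgaa

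The 2 Ccl4 probes, at chr11:83478052-83478111 and chr11:83478038-83478097 (mm9, plus strand), share 46 of their 60 bases. The first was well above background on 3 arrays and the second on 0, although both were highest in mice 1 and 25. In the first 30 bases of each, shown to let the overlap be seen, capitals mark shared bases.
Ccl4, brighter probe: TATTATTTATGTTTTAGTTATAGGACGCGT
Ccl4, dimmer probe: gggagtattattttTATTATTTATGTTTTA

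Single arrays stood out for Il6 and Cxcl10. One Il6 probe read 69.8 units in Conv + OM(HFD) mouse 26 and 2.08 to 6.28 in the other 15 mice, while the second Il6 probe read 2.22 in mouse 26 and was well above background on 0 arrays. A second Cxcl10 probe read 125 units in Conv + LM mouse 14 and 2.16 to 5.59 elsewhere, against a main probe at 155 units in that mouse. In neither case did the other probe of the gene stand out in the same mouse. The 3 Nfkb1 probes were all well above background on 16 arrays.

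**Figure D2:**
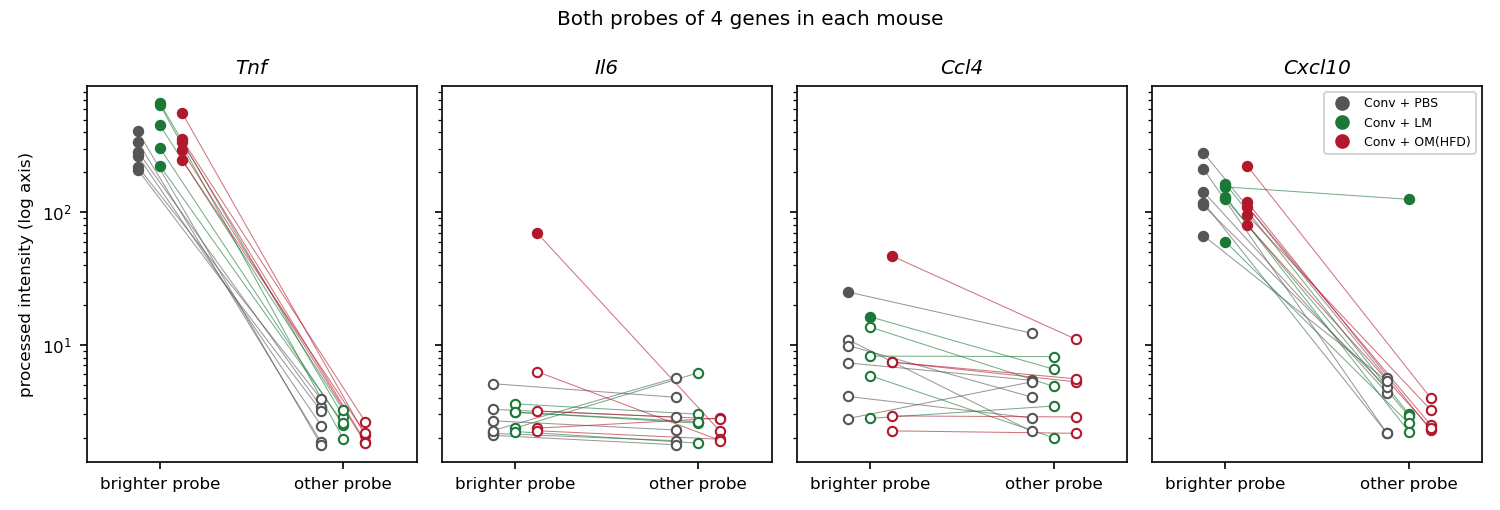
Processed intensity (log axis) of the brighter and the other probe of Tnf, Il6, Ccl4 and Cxcl10, with a line for each of 16 mice coloured by group and open points where the probe was not well above background. The other Tnf probe stays at 3.90 units or below in all mice, and the single high points of Il6 (mouse 26, 69.8 units) and of the other Cxcl10 probe (mouse 14, 125 units) each belong to 1 array.

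No tested member passed limma's threshold in any comparison of the groups. At an unadjusted limma p under 0.05, 0 of 8 were called in Conv + OM(HFD) vs. Conv + PBS, where 3.21% of all tested genes were, 0 of 8 in Conv + LM vs. Conv + PBS (3.85% of all), and 0 of 8 in Conv + OM(HFD) vs. Conv + LM (2.62% of all). After Benjamini-Hochberg adjustment in limma, 0 of 20404 genes passed in each comparison, and the lowest adjusted p of a member was 0.998. For every member the groups overlapped, while they did not for 0.221%, 0.27% and 0.426% of all genes in the same order of comparisons. In each comparison 4 members had a higher and 4 a lower mean. The median log2 difference of the members was 0.00 for Conv + OM(HFD) vs. Conv + PBS, -0.06 for Conv + LM vs. Conv + PBS and 0.02 for Conv + OM(HFD) vs. Conv + LM, beside 0.00, -0.01 and 0.00 over all genes tested. On slide 1 the 3 medians were 0.30, 0.23 and 0.02 and on slide 2 -0.29, -0.28 and -0.14, and without mouse 25 those with obese microbiota were both -0.30. The first 2 comparisons share the Conv + PBS mice, and all 3 share mice in pairs, so they are not independent of each other.

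**Figure D3:**
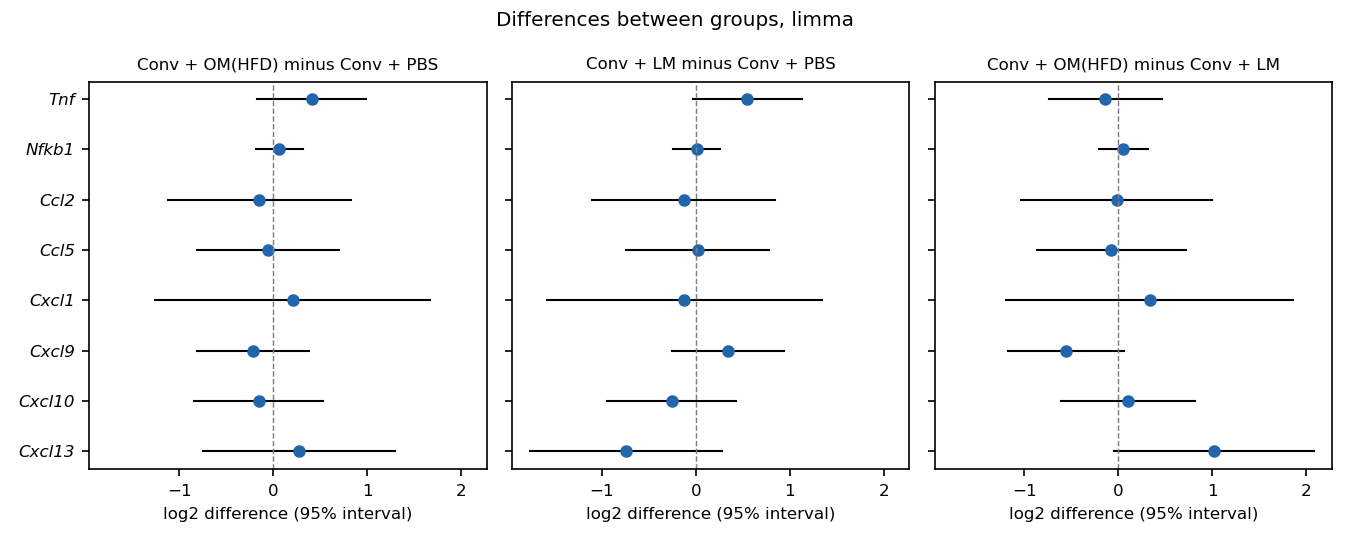
Log2 difference in level of the 8 tested members with its 95% interval (limma, 3 groups in 1 fit) for the 3 comparisons. Every interval includes 0, and the widest are those of Cxcl1, with the widest of all from -1.195 to 1.862 in Conv + OM(HFD) vs. Conv + LM.

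The bright Tnf probe, the source of all values given for Tnf, averaged above vehicle in both groups given microbiota, without passing the test. Its level was 1.46, 0.60, 0.97, 1.03 and 0.83 in the 5 Conv + OM(HFD) mice and 0.58, 1.61, 0.45, 1.83 and 1.11 in the 5 Conv + LM mice. In Conv + PBS it ran from 0.02 to 1.42 with a median of 0.50. All 5 Conv + OM(HFD) mice and 4 of 5 Conv + LM mice lay above that median, yet the highest Conv + PBS mouse, mouse 4, exceeded all but 3 of the 10 inoculated mice. The difference was 0.41 (SE 0.27, 95% interval -0.17 to 0.99, limma p = 0.150, exact permutation p = 0.134) for obese and 0.55 (SE 0.27, interval -0.03 to 1.13, limma p = 0.0604, exact permutation p = 0.121) for lean microbiota. On the linear scale the intervals span 0.89 to 1.99-fold and 0.98 to 2.19-fold. Both microbiota groups were thus on the same side of vehicle, and Conv + OM(HFD) vs. Conv + LM gave -0.14 (interval -0.74 to 0.47). By slide, the obese microbiota difference of Tnf from vehicle was 0.75 on slide 1 and 0.02 on slide 2, and the lean microbiota difference 0.76 and 0.34. With Conv + PBS mouse 4 left out the difference in Conv + LM was 0.72 (limma unadjusted p = 0.0116, adjusted p = 0.999) and that in Conv + OM(HFD) 0.58 (limma unadjusted p = 0.0345, adjusted p = 0.9998).

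Il6 gave no fold change, since its probe was not well above background in all Conv + PBS and all Conv + LM mice and the mean of Conv + OM(HFD), -4.89, lay below the lowest level that was called well above background in the other groups, -4.10 on average in Conv + PBS. Nfkb1 was measured most tightly, with a standard error of 0.12 for its differences from vehicle. Its main probe ranged from 1.41 to 1.93 in Conv + PBS, 1.56 to 1.97 in Conv + LM and 1.59 to 2.14 in Conv + OM(HFD). The differences from vehicle were 0.06 (interval -0.19 to 0.31) for obese and 0.01 (interval -0.24 to 0.26) for lean microbiota. The second Nfkb1 probe gave 0.16 and 0.19 and the third -0.02 and -0.06 for the same comparisons, none with an unadjusted p under 0.05.

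Among the CC chemokines, Ccl2 was dim and highest in the 2 mice named above. Its level was -0.69 in Conv + OM(HFD) mouse 25 and -3.72 to -2.79 in the other 4 mice of that group, -1.69 in Conv + PBS mouse 1 and -3.45 to -2.57 in the other 5, and -3.41 to -2.50 in Conv + LM. With all mice Ccl2 differed by -0.15 (interval -1.12 to 0.83) in Conv + OM(HFD) and by -0.13 (interval -1.10 to 0.85) in Conv + LM vs. Conv + PBS. Without mice 1 and 25 the values became -0.48 (limma unadjusted p = 0.0614) and 0.08, and Conv + OM(HFD) vs. Conv + LM went from -0.02 to -0.56 (unadjusted p = 0.0339, adjusted p = 0.954). For obese microbiota vs. vehicle it was -0.69 without mouse 25 alone (limma unadjusted p = 0.0329), not passing after adjustment. Without mouse 1 alone it was 0.06. Ccl5 behaved likewise, at 1.79 and 2.08 in mice 25 and 1 and between -0.04 and 0.94 in the others of their groups, with 0.11 to 1.20 in Conv + LM. Its differences were -0.05 (interval -0.81 to 0.70) for obese and 0.02 (interval -0.74 to 0.78) for lean microbiota vs. vehicle, and -0.06 and 0.29 without mice 1 and 25. Ccl4 was above background in mice 1 and 25 and in Conv + LM mouse 17, at levels of -2.89, -2.14 and -3.68.

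Among the CXC chemokines, Cxcl1 had the widest spread between mice. It was at 3.57 in Conv + OM(HFD) mouse 25 and 2.57 in Conv + PBS mouse 1, and between -0.98 and 1.17 in the other 14 mice. The differences, 0.21 (interval -1.25 to 1.67) for obese and -0.12 (interval -1.59 to 1.34) for lean microbiota vs. vehicle, turned to -0.08 and 0.26 without those 2 mice. For obese microbiota vs. vehicle the value was 0.60 without mouse 1 alone and -0.47 without mouse 25 alone. The interval for obese microbiota vs. vehicle reaches a 3.19-fold higher level.

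Cxcl9 was at 0.28, 1.31, 0.82, -0.49 and 1.08 in the Conv + LM mice and lower in most Conv + OM(HFD) mice, at 0.30, -0.27, 0.13, -0.03 and 0.07. In Conv + PBS it ran from -0.23 to 1.05 with a median of 0.19, and mouse 1 held the top value. The Conv + LM median exceeded the level of all 5 Conv + OM(HFD) mice, but Conv + LM mouse 16 lay below all of them. The difference between Conv + OM(HFD) and Conv + LM was -0.56 (SE 0.29, interval -1.18 to 0.06, limma p = 0.0746, exact permutation p = 0.143). It was -0.63 on slide 1 and -0.62 on slide 2. Without Conv + LM mouse 16 it was -0.83 (unadjusted p = 0.00325, adjusted p = 0.996). That is the strongest of 28 alternatives, which ran from -0.83 to -0.38, with an unadjusted p under 0.05 in 4. Against vehicle, Cxcl9 differed by 0.34 (interval -0.25 to 0.94) in Conv + LM and by -0.22 (interval -0.81 to 0.38) in Conv + OM(HFD). Without Conv + PBS mouse 1 these were 0.50 and -0.06. The value for Conv + LM was 0.62 without Conv + LM mouse 16 (limma unadjusted p = 0.0165, adjusted p = 0.971), 0.16 without mouse 14 and 0.22 without mouse 17. Cxcl10, the other ligand of Cxcr3 in the set, ranged from -1.31 to 0.60 in Conv + PBS, -1.60 to -0.31 in Conv + LM and -1.05 to 0.12 in Conv + OM(HFD). Its differences from vehicle were -0.15 (interval -0.84 to 0.53) for obese and -0.26 (interval -0.94 to 0.43) for lean microbiota, and 0.05 and -0.05 without Conv + PBS mouse 1. Without Conv + LM mouse 16 the value for lean microbiota was -0.03.

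Cxcl13, the B cell chemokine, was close to background in most mice given lean microbiota. It was at -2.45, -3.73, -2.96, -2.34 and -3.38 in Conv + OM(HFD) and at -4.91, -4.11, -4.20, -3.65 and -3.09 in Conv + LM, of which the first 3 were not well above background. In Conv + PBS it ran from -4.18 to -1.23 with a median of -3.63. The groups overlapped through Conv + LM mice 16 and 17 and Conv + OM(HFD) mice 26 and 30. With 3 of 5 Conv + LM values not well above background, a size for the difference is uncertain. As measured, it was 1.02 (SE 0.50, interval -0.05 to 2.08), with limma p = 0.0602 and exact permutation p = 0.0397, where the smallest possible p is 0.00794. Adjusted over all genes tested the limma p was 0.9995. Its size depended on the processing, at 0.26 with normexp and 0.35 with the authors' processed values. On slide 1 the difference was 1.58 and on slide 2 it was 0.60. With all mice, the differences from vehicle were 0.27 (interval -0.75 to 1.29) for obese and -0.74 (interval -1.76 to 0.28) for lean microbiota. Without Conv + PBS mouse 1, the highest of all mice, they were 0.68 (limma unadjusted p = 0.0835, adjusted p = 1) and -0.34. B cell markers, of which 7 of 9 passed the filter, had a mean level of -2.61 to -2.06 in Conv + OM(HFD) and -2.80 to -2.27 in Conv + LM (exact permutation p = 0.333), with 7 of 7 higher in Conv + OM(HFD) (5 of 7 without mouse 25) and 0 of 7 at an unadjusted p under 0.05. In the same comparison Kupffer cell markers were higher with obese microbiota in 10 of 10 (median 0.31), neutrophil markers in 7 of 7 (median 1.07) and monocyte and dendritic cell markers in 6 of 6 (median 0.08), and without mouse 25 in 8 of 10 (median 0.12), 6 of 7 (median 0.15) and 3 of 6 (median -0.03). T and NK cell markers were higher with obese than with lean microbiota in 3 of 11, endothelial and stellate cell markers in 2 of 6 each, and hepatocyte markers in 6 of 8. Over the 16 mice Cxcl13 had r = 0.81 with the Kupffer cell markers and 0.05 with the B cell markers. The part of any of these cells in the Cxcl13 difference was not tested.

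Of 12 other NF-κB subunits and regulators, all of which passed the filter, 12 had a higher mean with obese microbiota than with vehicle, by 0.01 to 0.26 with a median of 0.09, and 0 had an unadjusted p under 0.05 in limma. Without mouse 25 this was 8 of 12, and the mean of the list differed with an exact permutation p of 0.515 over all mice. Hepatocyte markers were likewise higher in 8 of 8, with a median of 0.07, and after quantile normalization, a check added after seeing the data, 5 of 8 of them and 12 of 12 of the NF-κB list were higher. Their part in the NF-κB list was not tested. In Conv + LM vs. Conv + PBS 4 were higher and 8 lower, with 0 called. Rel, which encodes the c-Rel subunit of lymphoid and myeloid cells, averaged 1.24 ± 0.25 (SD, n = 5) with obese microbiota and 0.92 ± 0.11 (SD, n = 5) with lean microbiota, a difference of 0.32 (SE 0.13, limma p = 0.0282, adjusted p = 0.9995, exact permutation p = 0.0317). It was the 1 gene of these 12 called in any of the 3 comparisons, in one where 2.62% of all genes were called. In that comparison 9 of the 12 were higher with obese microbiota (median 0.11), and 5 of 12 without mouse 25 (median -0.02). Of 11 receptors for the members, 7 passed the filter and 0 were called in any comparison. Among 27 other chemokines, 15 passed and Ccl9, a macrophage chemokine, was called once, in the comparison with 2.62% of all genes called, with a difference of -0.44 between obese and lean microbiota (means 3.99 and 4.43, limma p = 0.0357, adjusted p = 0.9995, exact permutation p = 0.103). Among 31 other cytokines, 11 passed and Il27, an interleukin of antigen-presenting cells, was called once, where 3.21% of all genes were, at 0.95 in Conv + OM(HFD) and 0.68 in Conv + PBS (difference 0.27, limma p = 0.0467, adjusted p = 1, exact permutation p = 0.0519).

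Members also varied together between mice of the same group, and several pairs depended on mice 1 and 25. After subtraction of each group's mean, 26 of 28 pairs of members correlated positively over the 16 mice, and 10 pairs had a Benjamini-Hochberg adjusted permutation p under 0.05 by Pearson's r, 7 of them also by Spearman's rho. Of those 7, 5 kept r over 0.5 without the 2 mice farthest from the median of the first gene. Some pairs turned negative without mice 1 and 25, such as Cxcl1 and Cxcl13 (r = 0.20 to -0.73) and Ccl5 and Cxcl1 (0.59 to -0.29). How often pairs of other genes correlate in this way was not counted. Ccl2 and Ccl5 had r = 0.85 (adjusted permutation p = 0.00149) and rho = 0.76 (adjusted p = 0.007), and r was 0.67 without mice 1 and 25. Ccl5 and Cxcl9 had r = 0.77 (adjusted permutation p = 0.0014) and rho = 0.82 (adjusted p = 0.00392), and r was 0.80 without those mice. On the slides taken apart, Ccl2 and Ccl5 gave r = 0.96 and 0.99, and Ccl5 and Cxcl9 gave 0.56 and 0.89. Mouse 25 lay on slide 1 and mouse 1 on slide 2, so neither slide is free of these mice. Nfkb1 varied with Cxcl1 (r = 0.78, adjusted permutation p = 0.0123) and with Cxcl10 (r = 0.76, adjusted permutation p = 0.0106). With mice 6 and 25, the farthest in Nfkb1, left out, these fell to 0.47 and 0.59. Nfkb1 had r = 0.64 with Ccl2 and 0.59 with Ccl5 (adjusted permutation p = 0.0704 and 0.0782). Those values fell to 0.06 and 0.29 without mice 6 and 25. Ccl2 and Cxcl1, with r = 0.76, dropped to 0.08 without mice 1 and 25, so that this relation rests on them. No pair of Tnf with another member passed over the 16 mice, with r between 0.00 and 0.34. By slide the values diverged, at 0.85 on slide 1 and -0.42 on slide 2 with Cxcl9, and 0.68 and -0.06 with Ccl5. Without mice 14 and 16, the farthest in Tnf, r with Ccl5 was 0.58.

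**Figure D4:**
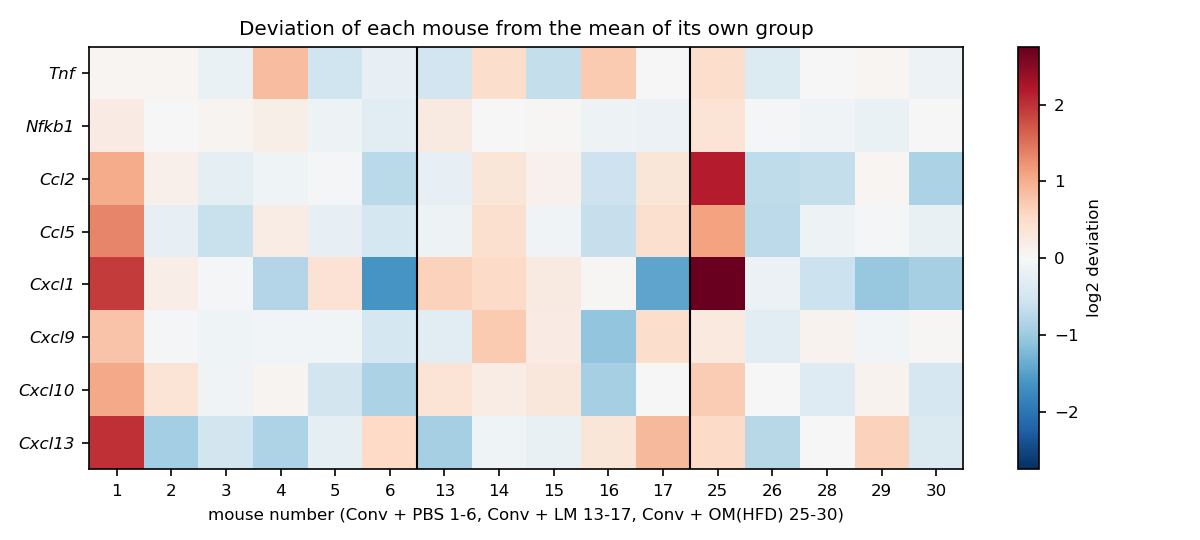
Deviation of each mouse (columns, by group) from its group's mean log2 level for the 8 tested members (rows). Red marks a higher and blue a lower level; Conv + PBS mouse 1 and Conv + OM(HFD) mouse 25 are at or above their group's mean for all 8 genes, and Cxcl1 in mouse 25 is farthest from its group.

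Levels of cell type markers moved with several chemokines. Over the same 16 mice, the mean of the 10 Kupffer cell markers correlated with Ccl2 (r = 0.76, adjusted permutation p = 0.0101, rho = 0.77, adjusted p = 0.0398, and r = 0.70 without mice 1 and 25). This was the 1 pair of 56 between members and marker lists that passed by both coefficients, and 10 passed by r. Ccl5 had r = 0.87 with the Kupffer cell markers (0.56 without mice 1 and 25) and 0.83 with the neutrophil markers (0.23 without them). Cxcl9 had r = 0.64 and Cxcl13 r = 0.81 with the Kupffer cell markers, which fell to 0.48 and 0.52 without mice 1 and 25. With the monocyte and dendritic cell markers r was 0.80 for Ccl2, 0.83 for Ccl5, 0.69 for Cxcl9 and 0.75 for Cxcl13, and 0.59, 0.49, 0.59 and 0.53 without those mice. Kupffer cell markers passed no test between groups, with mean levels of 1.28 to 3.70 in Conv + PBS, 0.98 to 1.72 in Conv + LM and 1.22 to 2.59 in Conv + OM(HFD) (lowest exact permutation p = 0.204). All 10 had a lower mean in both inoculated groups than in Conv + PBS, 0 of them at an unadjusted p under 0.05 in limma. For obese microbiota the direction rested on Conv + PBS mouse 1: without it 9 of 10 were higher with obese microbiota than with vehicle, while 9 of 10 stayed lower with lean microbiota, and without mouse 25 as well 3 of 10 were higher with obese microbiota. Their part in the chemokine levels was not tested. Tnf had r = 0.71 with T and NK cell markers, a list in which the Cd3d probe read 7.91 in Conv + LM mouse 16 and -2.43 to -0.65 in all other mice. Without Cd3d r was 0.50.

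**Figure D5:**
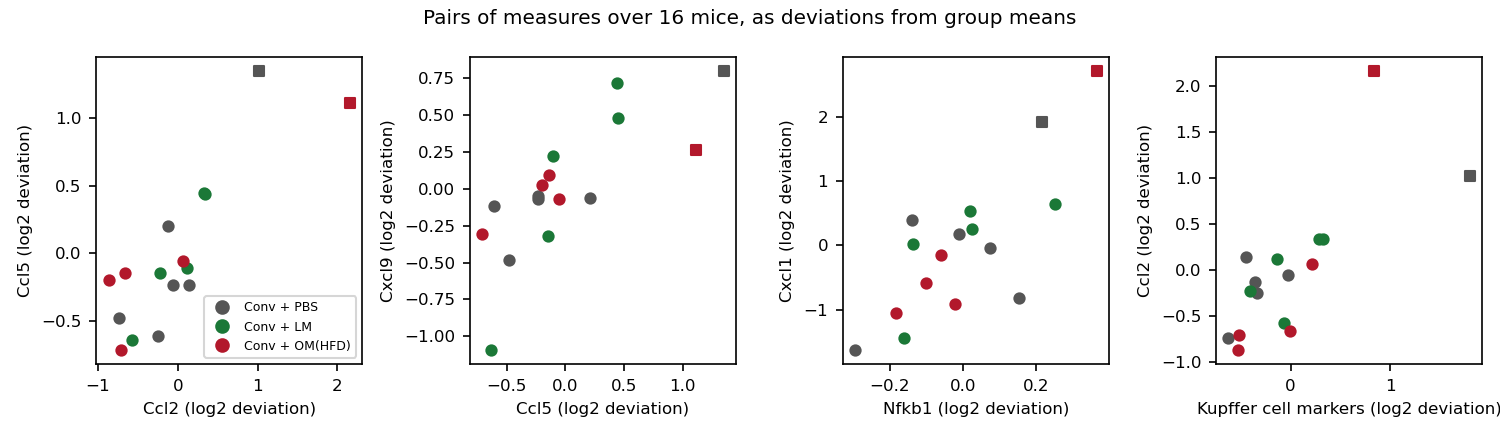
Log2 deviations from group means for Ccl2 and Ccl5, Ccl5 and Cxcl9, Nfkb1 and Cxcl1, and the mean of 10 Kupffer cell markers and Ccl2, with 1 point per mouse coloured by group. Squares are Conv + PBS mouse 1 and Conv + OM(HFD) mouse 25, toward the right of each panel; r over all 16 mice is 0.85, 0.77, 0.78 and 0.76.

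Among 17084 genes well above background on all arrays, those most like each member over the 16 mice were named from the Pearson correlation of their levels. S100a4, Tlr2, a receptor for bacterial lipoproteins, and Coro1a were nearest to Ccl2 (r = 0.94, 0.94 and 0.93), and Myo1f, Coro1a and Gpr132 to Ccl5 (r = 0.95 for all 3). Gbp2, an interferon-induced GTPase, and H2-Aa, an MHC class II chain, were among the nearest to Cxcl9 (r = 0.87 and 0.84). Cxcl1 was nearest to Hmgb2, Tifa and Sema4a (r = 0.92, 0.92 and 0.91), Cxcl10 to Pelp1, Gsdmd and Wwp2 (r = 0.94, 0.92 and 0.91), Nfkb1 to Fkbp15, Inf2 and Ikbke, a kinase related to those of the NF-κB pathway (r = 0.93, 0.91 and 0.90), and Tnf to Gm33874, Sohlh2 and Psd (r = 0.96, 0.95 and 0.94). These likenesses come from the highest of many correlations and are given as a description.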

How the data were processed

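Liver RNA of 16 mice was read on 1-colour Agilent arrays. The authors deposited, per array, the intensity of each spot from Agilent Feature Extraction 10.10.1.1 (background-subtracted processed signal, mean, median and local background), and a table of log2 values that matched log2 median intensity after quantile normalization (lowest r 0.999994). Its step, with limma named in the submitters' processing notes, is not described further in the sources used here. Probe positions are on mm9.

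Here spots of 1 probe were averaged, log2 of the processed signal was taken minus the array's 75th percentile, a probe was kept where at least 5 of 16 arrays called it well above background (30664 probes, 20404 genes) and the brightest probe stood for a gene. The 3 groups were fitted together in limma 3.58.1 (R 4.3.3) with Benjamini-Hochberg adjustment, beside two-sided exact permutation tests of the means (smallest p 0.00433 for 5 against 6 mice, 0.00794 for 5 against 5). The script was checked on simulated data. Correlations used deviations from group means and 100000 permutations in SciPy 1.17.1. Alternatives were other background corrections, normalizations, filters, slide as a block or alone, the methods' t-test and each mouse left out. Members and lists were chosen with earlier results of these data known. Named genes are the members, genes of the other lists at an unadjusted p under 0.05 and the 3 genes most like each member, of which 1 is not reported here. Nothing says how RNA extractions were batched. Each array is 1 mouse, and their number limits the precision. No column of the deposited log2 table was without a mouse.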

Additional observations from a re-analysis of the deposited data

Results flagged for a closer look

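In 3 of 24 combinations of a tested member and a group, 1 mouse lay far from the rest of its group by Dixon's test, which flags about 1 in 20 groups by chance. Cxcl1 in Conv + OM(HFD) mouse 25 was at 3.57, with the next mouse at 0.70. Cxcl9 in Conv + PBS mouse 1 was at 1.05, with the next at 0.20. Cxcl10 in Conv + LM mouse 16 was at -1.60, with the next at -0.67. Mice 25 and 1 are those with high neutrophil and Kupffer cell markers, whose part in these values was not tested. Mouse 16 had the highest neutrophil marker mean of Conv + LM, -0.66, and Kupffer cell markers at 1.33. Its T and NK cell marker mean, -0.49, was the highest of all 16 mice. That mean includes Cd3d at 7.91, against -2.43 to -0.65 in all other mice, and its rank rests on that probe. The part of these cells in the Cxcl10 value was not tested.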

How the results depend on the processing

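No member passed an adjusted p of 0.05 in any alternative (lowest 0.849). The median difference of the members turned with the slide, at 0.30 on slide 1 and -0.29 on slide 2 in Conv + OM(HFD) vs. Conv + PBS, and 0.23 and -0.28 in Conv + LM vs. Conv + PBS. With 1 mouse left out it ranged from -0.30 (mouse 25) to 0.16 (mouse 1), -0.18 (mouse 6) to 0.17 (mouse 1) and, between the microbiota groups, -0.30 (mouse 25) to 0.13 (mouse 30). Of 24 member differences, 7 kept their sign in all alternatives: Tnf against vehicle for both microbiotas, Cxcl9 in all 3 comparisons, and Cxcl13 in Conv + LM vs. Conv + PBS and in Conv + OM(HFD) vs. Conv + LM (0.26 to 1.58). The cause of the other shifts was not tested.

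The number of members at an unadjusted p under 0.05, 0 in each comparison, became 2 in Conv + OM(HFD) vs. Conv + PBS on slide 1 alone (Tnf, Cxcl13), and 1 in Conv + LM vs. Conv + PBS (Tnf) with normexp background correction and with the authors' values. In Conv + OM(HFD) vs. Conv + LM it became 1 with normexp and the authors' values (Cxcl9), and 1 with slide as a block, on slide 1 alone, with only the groups compared and by the methods' t-test (Cxcl13), and 3 without mice 1 and 25 together (Cxcl9, Ccl2, Cxcl13). Leaving out 1 mouse gave 0 to 1 in each comparison, with calls for Tnf without Conv + PBS 4 or Conv + LM 13 or 15, Cxcl9 without Conv + LM 16, Ccl2 without Conv + OM(HFD) 25, and Cxcl13 without Conv + PBS 1, Conv + LM 17 or Conv + OM(HFD) 26.

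Sign changes in Conv + OM(HFD) vs. Conv + PBS were Ccl2 0.0863 (normexp) and 0.12 (slide 1), Ccl5 0.56 (slide 1), Nfkb1 -0.0835, Cxcl1 -0.22 and Cxcl13 -0.36 (slide 2), and Cxcl1 -0.0817 (without mice 1 and 25). In Conv + LM vs. Conv + PBS they were Ccl5 -0.0042 (authors' values), Cxcl1 0.29 and Cxcl10 0.11 (slide 1), Nfkb1 -0.11 and Ccl5 -0.44 (slide 2), and Ccl2 0.0758 and Cxcl1 0.26 (without mice 1 and 25). In Conv + OM(HFD) vs. Conv + LM they were Ccl2 0.13 (normexp) and 0.0397 (authors' values), Nfkb1 -0.0021, Ccl2 0.14, Ccl5 0.0372 and Cxcl10 -0.22 (slide 1), and Nfkb1 -0.0384, Cxcl1 -0.34 and Cxcl10 -0.0731 (without mice 1 and 25).

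With 1 mouse left out in turn, the differences that changed sign ranged, in Conv + OM(HFD) vs. Conv + PBS, from -0.0282 to 0.11 for Nfkb1, -0.69 to 0.0714 for Ccl2, -0.33 to 0.22 for Ccl5, -0.47 to 0.60 for Cxcl1 and -0.33 to 0.054 for Cxcl10. In Conv + LM vs. Conv + PBS they ranged from -0.053 to 0.0536 for Nfkb1, -0.28 to 0.0758 for Ccl2, -0.10 to 0.29 for Ccl5 and -0.45 to 0.26 for Cxcl1. In Conv + OM(HFD) vs. Conv + LM they ranged from -0.30 to 0.0393 for Tnf, -0.0384 to 0.12 for Nfkb1, -0.56 to 0.20 for Ccl2, -0.35 to 0.11 for Ccl5, -0.34 to 0.60 for Cxcl1 and -0.13 to 0.22 for Cxcl10.

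By the scanner's weaker call of a positive and significant signal, Cxcl13 was detected on 16 arrays, Ccl4 on 15 and Il6 on 2. No paired analysis was possible because no mouse number occurs in more than 1 group. With 5 or 6 mice a group, members near background (Il6, Ccl4, and Cxcl13 in Conv + LM) have levels that the signal limits.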
